A study of Homo sapiens with 13 samples.

Results

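The mitochondrial ribosomal proteins are the proteins of the ribosome that works inside mitochondria. They were taken as the protein-coding genes whose symbol starts with MRPL (large subunit) or MRPS (small subunit) followed by a number. Of 166 symbols with such a start, 88 belonged to pseudogenes and other non-coding genes and were left out, which left 78 genes, 49 of the large and 29 of the small subunit, among 63241 gene IDs in the count files. Of these 78 genes, 77 had enough reads to be tested, among 16756 genes tested in all. The exception was MRPL53, which had 0 counts in all 13 libraries and shares 45.2% of its exonic bases with a neighbouring gene.

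Messenger RNA of AC16 cells was sequenced. AC16 is a human line that arose from the fusion of primary cells of the adult ventricle with transformed fibroblasts, and the labels give its cell type as myocyte and the genotype of every library as wildtype. There were 3 preconditioning+FCCP, 4 preconditioning, 3 FCCP and 3 control libraries. Preconditioning was optogenetic and acted on mitochondria through a construct named mOpto, and FCCP is an uncoupler, which carries protons across the inner membrane and so lowers the membrane potential. The design text speaks of control cells and of cells expressing mOpto. Whether FCCP and control cells carried mOpto or received light, the light and FCCP doses and the times were not stated in the labels.

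Mitochondrial ribosomes translate the few messenger RNAs of the mitochondrial genome, all of which encode membrane subunits of the respiratory chain and ATP synthase. Their ribosomal RNAs are made in the organelle, while every ribosomal protein is encoded in the nucleus, made in the cytosol and imported with the help of the membrane potential. The small subunit reads the messenger RNA, and the large subunit joins amino acids and sends the growing chain through an exit tunnel to the inner membrane. Some of the proteins have a counterpart in bacteria and others are found in mitochondria only. Heart muscle depends on this translation, and inherited defects in several of these genes cause cardiomyopathy in people.

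The promoters of 5 members are shown because the comparisons described below turn on these genes: MRPL18, MRPL22 and MRPL32 of the large and MRPS27 and MRPS31 of the small subunit. The sequences are from RefSeq on GRCh38.p14, each 300 bases long, from 250 bases before to 50 bases after the start of the gene, and are written 5′ to 3′ on the gene's strand. Capitals mark 4 short motifs wherever they occur on either strand: CCGGAAG, the core read by ETS factors, AAGATGGC of YY1, GCATGCGC of NRF1 and CCAAT of NF-Y. In the order printed, the windows are chr6:159789562-159789861 on the plus strand, chr5:154940823-154941122 on the plus strand, chr7:42932126-42932425 on the plus strand, chr5:72320191-72320490 on the minus strand and chr13:40771141-40771440 on the minus strand.
MRPL18: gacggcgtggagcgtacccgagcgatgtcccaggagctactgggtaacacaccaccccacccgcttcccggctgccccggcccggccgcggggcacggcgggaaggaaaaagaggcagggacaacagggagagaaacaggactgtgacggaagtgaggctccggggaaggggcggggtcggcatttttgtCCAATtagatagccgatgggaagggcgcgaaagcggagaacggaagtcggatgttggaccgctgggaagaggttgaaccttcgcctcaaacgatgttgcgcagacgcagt
MRPL22: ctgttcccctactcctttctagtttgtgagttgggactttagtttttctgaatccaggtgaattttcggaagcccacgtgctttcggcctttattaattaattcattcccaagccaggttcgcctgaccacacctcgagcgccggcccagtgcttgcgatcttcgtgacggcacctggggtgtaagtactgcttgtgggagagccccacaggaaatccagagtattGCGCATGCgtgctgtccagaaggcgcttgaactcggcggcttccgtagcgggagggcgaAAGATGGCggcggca
MRPL32: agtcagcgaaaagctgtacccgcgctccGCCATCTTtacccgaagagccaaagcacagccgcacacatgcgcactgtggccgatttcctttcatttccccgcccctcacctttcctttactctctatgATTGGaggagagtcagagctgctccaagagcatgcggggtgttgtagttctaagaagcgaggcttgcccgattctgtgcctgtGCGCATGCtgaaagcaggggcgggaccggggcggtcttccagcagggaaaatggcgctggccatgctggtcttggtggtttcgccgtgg
MRPS27: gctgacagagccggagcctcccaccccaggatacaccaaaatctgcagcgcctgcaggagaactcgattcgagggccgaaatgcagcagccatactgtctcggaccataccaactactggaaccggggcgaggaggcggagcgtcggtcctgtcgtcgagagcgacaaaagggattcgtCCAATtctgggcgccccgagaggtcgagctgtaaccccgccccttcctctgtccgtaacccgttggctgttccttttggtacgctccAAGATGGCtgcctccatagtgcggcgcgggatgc
MRPS31: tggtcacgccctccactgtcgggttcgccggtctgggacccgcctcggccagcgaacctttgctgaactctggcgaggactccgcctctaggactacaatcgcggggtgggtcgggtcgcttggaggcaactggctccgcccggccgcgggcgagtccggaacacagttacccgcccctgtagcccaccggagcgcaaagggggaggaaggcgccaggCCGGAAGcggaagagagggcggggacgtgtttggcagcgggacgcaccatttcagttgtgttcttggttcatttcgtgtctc
The MRPL18 window held a CCAAT, the MRPL22 window an NRF1 and a YY1 motif, the MRPL32 window a YY1, an NRF1 and a CCAAT motif, the MRPS27 window a CCAAT and a YY1 motif, and the MRPS31 window an ETS motif. Promoters were found in RefSeq for 69 of the 78 members, 42 of the large and 27 of the small subunit. The ETS motif was in 17 of 42 large and 12 of 27 small subunit promoters, against 10.7% of 27305 promoters of all genes, and the YY1 motif in 12 and 8, against 3.03%. The NRF1 motif was in 4 of 42 large and 2 of 27 small subunit promoters, against 3.27% of all, and CCAAT in 11 and 9, against 35.7%. The subunits held each motif in similar shares (40.5% large and 44.4% small for ETS, 28.6% and 29.6% for YY1), and a match is a description of the letters, not a site of binding.

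Libraries held 14970803 to 20636229 gene counts, and the labels do not call the replicates separate cultures, so that p-values cover just the spread of these libraries, which may be technical. Defining markers of heart muscle were low: of 12 cardiomyocyte markers 4 could be tested, TNNT2 had no count in any library, and the 12 together reached 3.61 to 12.5 CPM (counts relative to the scaled library size). The 10 fibroblast markers were all tested and reached 2703 to 14517 CPM, the 5 endothelial markers 2.59 to 25.8 CPM and the 5 immune markers 1.38 to 8.84 CPM. The libraries fell into 2 sets at the widest step in the fraction of multiply aligned reads. It was above 6.17% in preconditioning+FCCP 3, FCCP 1 to 3 and control 1 and 2, called the higher-share set, and below it in preconditioning+FCCP 1 and 2, preconditioning 1 to 4 and control 3, called the lower-share set. All preconditioning libraries are in the lower and all FCCP libraries in the higher set, so that the set moves with the groups, and results are given with it beside them. In bulk RNA, fewer cells of a type and less RNA per cell cannot be told apart.

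The members together took 0.329% to 0.372% of gene counts in preconditioning libraries, less than in any library of the other groups. The share was 0.382%, 0.426% and 0.473% in preconditioning+FCCP libraries, 0.441%, 0.527% and 0.558% in FCCP libraries, and 0.481%, 0.499% and 0.451% in control 1, 2 and 3. Levels between genes are compared as CPM per kilobase of median transcript length, as means over the 13 libraries. MRPL51 was highest with 294 CPM per kilobase, followed by MRPL28 (201), MRPL18 (169), the small subunit gene MRPS15 (153) and MRPL49 (139). MRPL51 shares 31.3% of its exonic bases with another gene, and MRPL28 and MRPL18 do not differ beyond their spread over libraries. The median was 57.3 CPM per kilobase in the large and 36.9 in the small subunit.

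At the low end, 10 members averaged under 10 CPM, among them MRPL2, MRPL38 and MRPL46 of the large and MRPS18C, MRPS24 and MRPS28 of the small subunit. Of these 10 members, 9 share over 10% of their exonic bases with another gene, against 17 of the 68 members at or above 10 CPM. Reads in shared bases may have been counted for neither gene, and whether the counting used strand is not stated, so these levels are uncertain. Of the 78 members, 41 overlap another gene in exons and 36 have named pseudogenes, with which they may share reads. Among the 3 paralogs of the bacterial protein S18, MRPS18B was at 72.5 to 86.6 CPM in preconditioning+FCCP, 76.0 to 92.6 in preconditioning, 73.5 to 85.7 in FCCP and 76.5 to 112 CPM in control libraries, and was called in none of the comparisons. MRPS18A, which shares 47.0% of its exonic bases, averaged 13.5 and MRPS18C 2.84 CPM per kilobase over all libraries, and neither was called in any comparison.

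**Figure D1:**
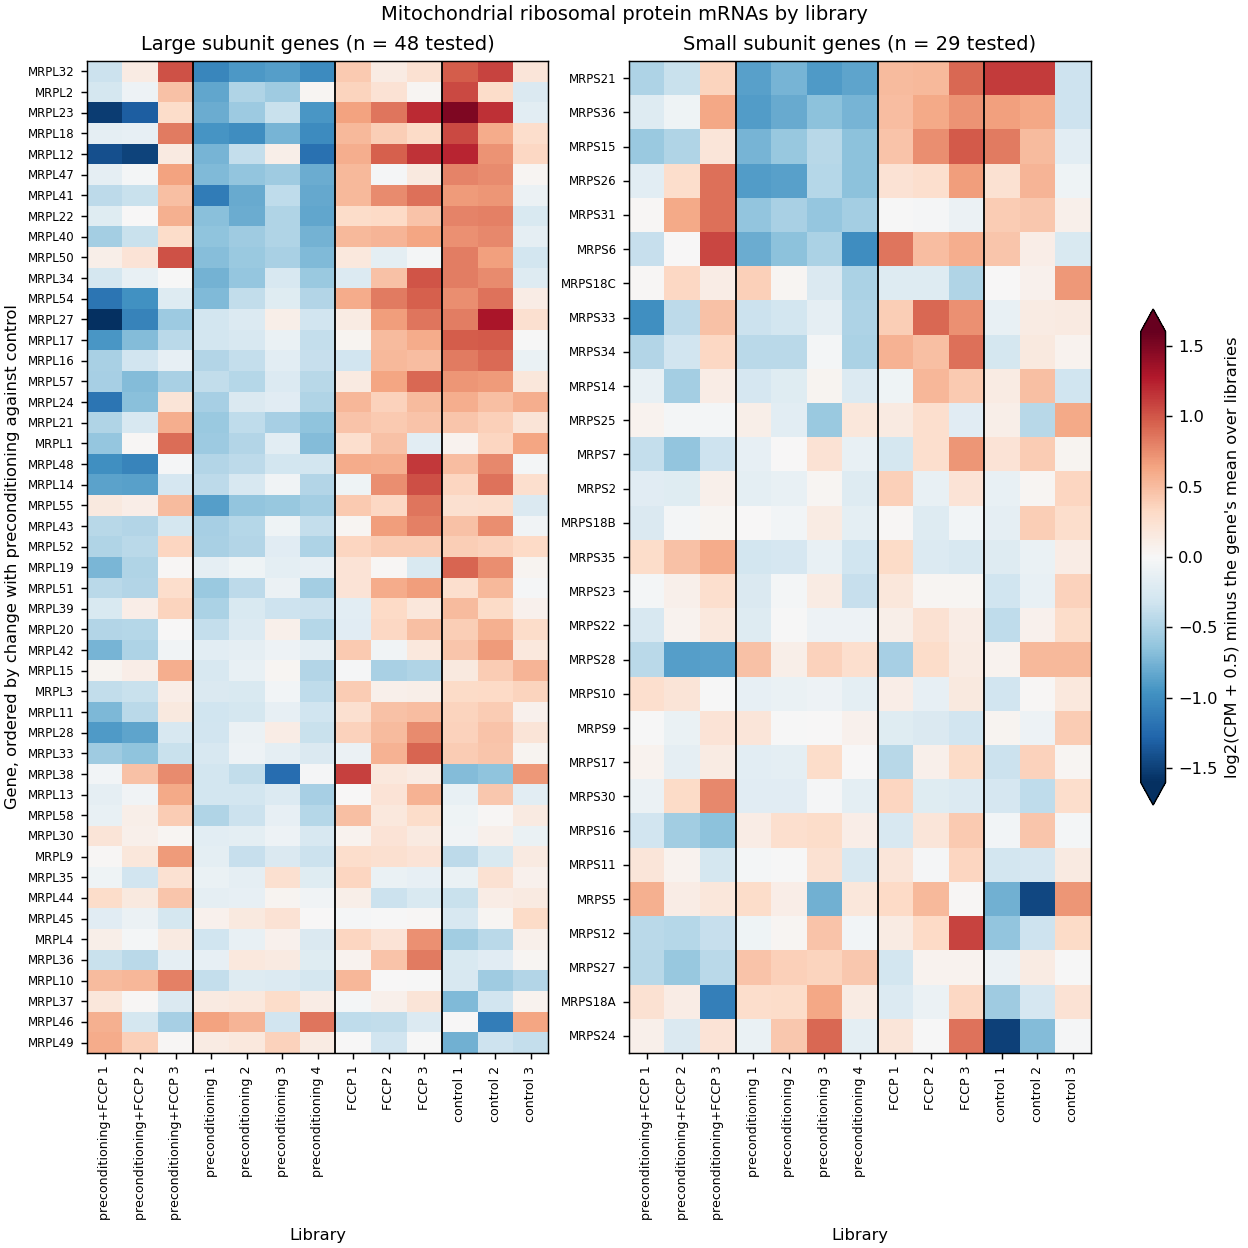
Heat map of the 77 tested members (rows, large subunit left, small subunit right) in 13 libraries (columns, by group). Colour gives log2 CPM, with a small pseudocount, minus the gene's mean over libraries. The large subunit panel is mostly blue in preconditioning libraries, control 3 is paler than control 1 and 2, and preconditioning+FCCP 3 is redder than the other preconditioning+FCCP libraries.

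The first comparison asked what preconditioning did without FCCP. Of the 77 members tested, 37 fell in preconditioning cells against control cells and 1 rose, by edgeR's quasi-likelihood test with Benjamini-Hochberg adjustment at an adjusted p under 0.05, the test behind every call below. Of all genes tested, 13% were called lower and 10.5% higher. The large subunit held most of the calls: 31 of its 48 tested members fell, with a median log2 fold change of −0.76, against 6 of 29 in the small subunit, with a median of −0.19. The median of all genes was −0.02.

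MRPL18, a protein of the central protuberance, where human mitochondrial ribosomes hold a transfer RNA in place of 5S ribosomal RNA, had 76.8, 74.1, 88.1 and 73.7 CPM in preconditioning libraries, against 309.6, 224 and 181 CPM in control libraries. Every preconditioning library lay below every control library, with control 3 nearest to them. The log2 fold change was −1.61 ± 0.23 (SE; adjusted p = 0.00154). MRPL32, which is cut by the m-AAA protease before it joins the subunit, had 24.6, 26.9, 27.5 and 25.2 CPM in preconditioning and 101, 109 and 58.6 CPM in control libraries, and fell by the most among called members (−1.78 ± 0.27, adjusted p = 0.00164). Its groups did not overlap either, and control 3 was again the lowest of the control libraries.

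Of 5 proteins grouped here around the exit tunnel 4 fell, where 64.6% of the large subunit and 13% of all genes were called lower. MRPL47 had 34.4, 36.2, 37.9 and 32.3 CPM in preconditioning and 98.7, 96.1 and 57.6 CPM in control libraries (−1.26 ± 0.22, adjusted p = 0.00266). MRPL22 had 40.3, 36.9, 45.9 and 35.9 CPM in preconditioning and 113, 113 and 54.3 CPM in control libraries (−1.23 ± 0.23, adjusted p = 0.00323). For both genes all preconditioning libraries lay below all control libraries, and control 1 and 2 stood well above control 3. MRPL23 (−1.66 ± 0.40) and MRPL24 (−0.90 ± 0.24) also fell. MRPL45, which ties the ribosome to the inner membrane, was the exception, with 31.5 to 36.8 CPM in preconditioning and 26.1 to 38.9 CPM in control libraries (log2 fold change 0.08 ± 0.16, adjusted p = 0.770).

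Beside each group in this paragraph stand the same shares called lower, 64.6% of the large subunit and 13% of all genes. Of 6 members grouped here in the central protuberance 4 fell: MRPL18, MRPL40 (−1.13 ± 0.22), MRPL48 (−0.84 ± 0.27) and MRPL52 (−0.77 ± 0.19). MRPL38 and MRPL46, the other two, averaged under 10 CPM and did not pass. Near the peptidyl transferase centre 3 of 5 fell, MRPL3 (−0.56 ± 0.16), MRPL16 (−0.96 ± 0.24) and MRPL27 (−1.04 ± 0.27), while MRPL4 had a log2 fold change of 0.13 ± 0.19 and MRPL2 of −1.67 ± 0.61 at under 10 CPM. Of the stalk, which recruits translation factors, MRPL11 (−0.55 ± 0.19) and MRPL12 (−1.37 ± 0.42) fell and MRPL10 did not pass (0.16 ± 0.17). MRPL12, which in human cells also binds the mitochondrial RNA polymerase, had 4.03, 5.34, 7.57 and 2.81 CPM in preconditioning and 17.2, 12.0 and 9.07 CPM in control libraries and shares 68.2% of its exonic bases with another gene.

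MRPL41, a protein with no bacterial counterpart, had 59.5, 73.6, 97.9 and 72.9 CPM in preconditioning libraries, against 207, 211 and 121 CPM in control libraries (−1.24 ± 0.25, adjusted p = 0.00396). The member that rose was MRPL49, also without a bacterial counterpart, with 76.7, 78.8, 90.5 and 76.7 CPM in preconditioning and 40.7, 55.6 and 53.4 CPM in control libraries (0.69 ± 0.18, adjusted p = 0.0120). Its preconditioning libraries all lay above its control libraries, of which control 1 was lowest, and without control 1 the call was lost. MRPL44, a protein with an RNase III-like fold whose defects cause cardiomyopathy in people, had 35.8 to 40.9 CPM in preconditioning and 30.8 to 43.8 CPM in control libraries and was not called (−0.06 ± 0.17). Members with a bacterial counterpart fell in 23 of 46 cases and those specific to mitochondria in 14 of 29, nearly equal shares, against 13% of all genes. Of those with a counterpart 20 of 30 large and 3 of 16 small subunit members fell, and of the mitochondria-specific ones 11 of 18 large and 3 of 11 small subunit members.

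The 6 small subunit members that fell were MRPS21, MRPS36, MRPS31, MRPS15, MRPS26 and MRPS6. MRPS21 had 53.9, 59.0, 52.4 and 55.1 CPM in preconditioning and 215, 215 and 78.3 CPM in control libraries (−1.62 ± 0.28, adjusted p = 0.00263). Control 3 lay closer to the preconditioning libraries than to control 1 and 2. MRPS36 carries the symbol KGD4 in RefSeq, is known as a subunit of the 2-oxoglutarate dehydrogenase complex, and had 16.0, 17.0, 19.0 and 17.8 CPM in preconditioning and 47.8, 46.5 and 23.8 CPM in control libraries (−1.17 ± 0.24). MRPS31 had 15.6, 16.9, 15.9 and 16.6 CPM in preconditioning and 32.6, 33.3 and 26.0 CPM in control libraries (−0.92 ± 0.19, adjusted p = 0.00544). In MRPS36 and MRPS31 alike no preconditioning library reached the lowest control library. MRPS15 (−1.06 ± 0.23), MRPS26 (−0.98 ± 0.23) and MRPS6 (−0.86 ± 0.27) followed, of which MRPS26 lost its call without control 2 and MRPS6 in 5 of the 13 fits that leave out 1 library.

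Of the marker lists, the 5 smooth muscle markers summed to 348 to 518 CPM in preconditioning and 507 to 790.2 CPM in control libraries, ranges that overlap slightly. The 5 endothelial markers summed to 20.9 to 25.8 CPM in preconditioning and 7.29 to 16.3 CPM in control libraries, without overlap, and the fibroblast and immune markers overlapped. The part of these markers in the members' values was not tested. The set of libraries moved with this comparison as well. With the set as a term in the fit 3 members were lower and none of the 77 higher, against 1.41% of all genes lower, and 24 members had an unadjusted p under 0.05. Within the lower-share set, which holds control 3 alone against 4 preconditioning libraries and assumes that control 3 varies like the other groups, 15 members were lower and 1 higher, 12 of the large and 3 of the small subunit lower, against 9.16% of all genes lower. MRPL18 was at −1.20 and MRPL32 at −1.16 there, MRPS31 at −0.67 and MRPL49 at 0.60, all of them called. Without control 1 the count fell to 18 lower and 0 higher, without control 2 to 19 lower and 1 higher, without preconditioning 1 to 23 lower and 1 higher. The share of all genes called lower was smaller in these fits too, at 4.88% without control 1, 6.13% without control 2 and 7.57% without preconditioning 1.

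Transcript length moved with this comparison too. Members of the large subunit have a median transcript length of 920 bases and those of the small subunit of 1281 bases, against 1684 bases for all genes tested. Over all genes, those under 800 bases had a median log2 fold change of −0.29 and those of 2500 bases and over of 0.28. Within length classes, 10 of 14 large and 0 of 5 small subunit members under 800 bases fell, against 20.8% of all genes of that class. From 800 to under 1200 bases these were 14 of 20 and 3 of 6, against 20.8% of all genes, and from 1200 to under 1800 bases 4 of 10 and 3 of 15, against 15.02%. Median log2 fold changes of large subunit, small subunit and all genes were −0.76, −0.12 and −0.29 under 800 bases. They were −0.80, −0.60 and −0.23 from 800 to under 1200 bases. From 1200 to under 1800 bases they were −0.098, −0.19 and −0.14, with the large subunit median the least negative. MRPL22 and MRPL50, both of 2500 bases or more, fell as well (−1.23 and −1.11). With the trend of each library on length and GC content removed, 24 members were lower and 3 higher, against 10.4% and 8.88% of all genes. Of the lower ones, 19 were in the large and 5 in the small subunit.

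**Figure D2:**
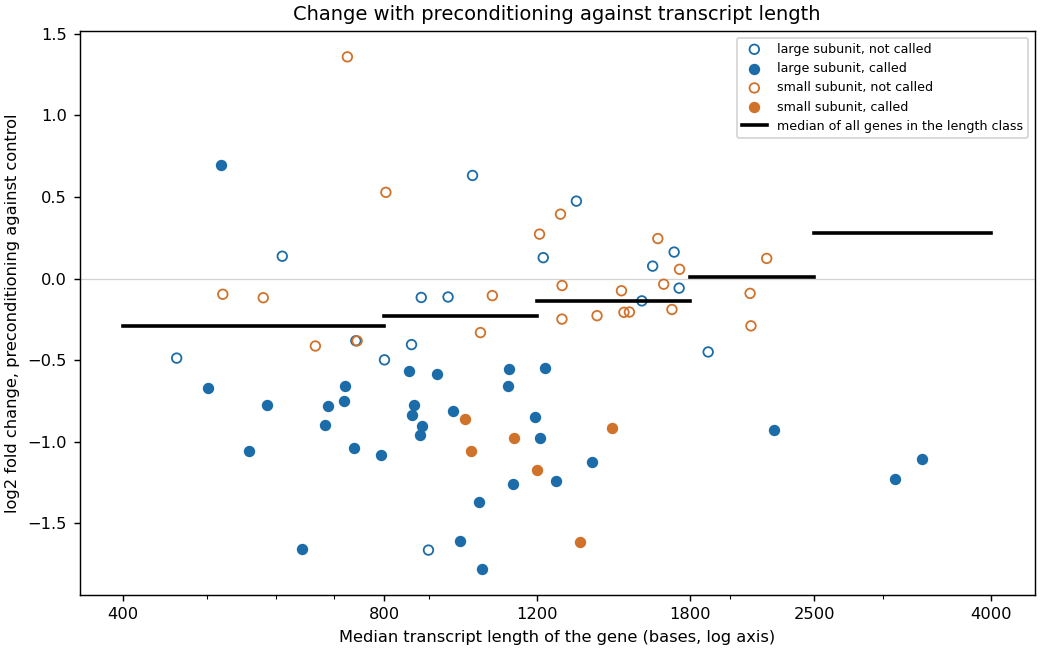
Log2 fold change of each tested member in preconditioning against control (vertical axis) by median transcript length in bases (horizontal log axis). Filled points were called, and black bars are medians of all genes of a length class, from −0.29 under 800 bases to 0.28 at 2500 bases and over; most large subunit points lie below these bars.

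FCCP alone against control gave no call: 0 of 77 members were called lower and 0 higher by edgeR, against 1.92% of all genes lower and 1.6% higher. At an unadjusted p under 0.05 there were 10 of 77 members, against 3448 of 16756 genes. DESeq2 called 2 members higher and 1 lower, where it called 3.74% of all genes higher and 4.2% lower, and limma-voom called 0 members. Neither count puts the members above genes in general. The median log2 fold change was 0.08 over the members, 0.04 in the large and 0.08 in the small subunit, against −0.04 over all genes. MRPL4, counted above with the peptidyl transferase region, had 63.0, 58.1 and 82.9 CPM in FCCP libraries and 33.8, 36.9 and 52.8 CPM in control libraries, a log2 fold change of 0.73 ± 0.20 with an adjusted p of 0.0566. The FCCP libraries lay above the control libraries, as they did for MRPL10, the base of the stalk, with 127, 88.4 and 87.5 CPM in FCCP and 73.3, 58.8 and 63.1 CPM in control libraries (0.63 ± 0.18, adjusted p = 0.0594). DESeq2 called both of these genes.

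In the small subunit MRPS34 had 110.4, 106 and 138 CPM in FCCP and 62.0, 84.0 and 78.2 CPM in control libraries (0.66 ± 0.22, adjusted p = 0.104). All 3 FCCP libraries were above control. MRPS12, a protein of the decoding centre, had 50.4, 57.5 and 98.3 CPM in FCCP and 29.7, 36.7 and 57.3 CPM in control libraries, and FCCP 3 stood apart from FCCP 1 and 2 (0.74 ± 0.27, adjusted p = 0.134). Leaving out control 3, FCCP 1 and preconditioning+FCCP 3 together, libraries that sit apart from their groups, gave 9 members lower and 9 higher. Leaving out control 3 alone gave 1 lower and 3 higher, against 2.44% of all genes lower and 2.36% higher. With the 3 left out, all 9 of the lower members were of the large subunit, against 10.8% of all genes lower and 7.29% higher.

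Preconditioning+FCCP against FCCP asked what preconditioning did in cells that then met FCCP. Of 77 members 25 fell and 3 rose, against 17.7% of all genes lower and 17.9% higher. The large subunit had 18 of 48 lower and 1 higher, with a median log2 fold change of −0.39, and the small subunit 7 of 29 lower and 2 higher, with a median of −0.18, against 0.01 over all genes. With library totals as the only scaling, which shifted the median of all genes to 0.19, the members had 21 lower and 7 higher and a median of −0.14. Of all genes 13.3% were lower and 23.8% higher in that fit. The 10 fibroblast markers summed to 2703 to 4364 CPM in preconditioning+FCCP and 9125 to 10707 CPM in FCCP libraries, and the 5 smooth muscle markers to 159 to 382 CPM in preconditioning+FCCP and 664 to 911 CPM in FCCP libraries. The 5 endothelial markers summed to 2.59 to 4.69 CPM in preconditioning+FCCP and 8.95 to 13.9 CPM in FCCP libraries, and the 5 immune markers to 1.602 to 3.33 CPM in preconditioning+FCCP and 6.38 to 8.84 CPM in FCCP libraries. None of these ranges overlapped between the groups. Their part in the members' values was not tested.

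MRPL28 had 80.8, 84.4 and 127 CPM in preconditioning+FCCP libraries, against 196, 216 and 257 CPM in FCCP libraries (−1.20 ± 0.20, adjusted p = 0.000746). MRPL54 had 15.9, 18.4 and 31.6 CPM in preconditioning+FCCP and 55.1, 65.2 and 70.9 CPM in FCCP libraries (−1.54 ± 0.26, adjusted p = 0.000755). For both genes the groups did not overlap, and preconditioning+FCCP 3 was the highest of its group. The same order held for MRPL57 (−1.19 ± 0.20), MRPL27 of the peptidyl transferase region (−1.64 ± 0.30), MRPL48 of the central protuberance (−1.43 ± 0.29) and MRPL14, to which the factor MALSU1 binds during assembly (−1.29 ± 0.27). MRPL27 was at 12.9, 19.7 and 27.6 CPM in preconditioning+FCCP libraries, against 45.6, 66.7 and 75.7 CPM in FCCP libraries. MRPL12 of the stalk fell as well, with 2.37, 2.22 and 7.91 CPM in preconditioning+FCCP and 10.9, 14.2 and 16.4 CPM in FCCP libraries (−1.74 ± 0.46). MRPL18 (−0.14 ± 0.25), MRPL22 (−0.19 ± 0.25) and MRPL44 (0.46 ± 0.19) did not pass.

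Of the small subunit, MRPS15 (−0.995 ± 0.25), MRPS12 (−0.997 ± 0.27), MRPS34 (−0.76 ± 0.22), MRPS7 (−0.74 ± 0.22), MRPS16 (−0.65 ± 0.20) and MRPS33 (−0.90 ± 0.29) were lower in preconditioning+FCCP, as was MRPS27, described with the next comparison. MRPS12 had 34.0, 33.6 and 35.8 CPM in preconditioning+FCCP libraries, against 50.4, 57.5 and 98.3 CPM in FCCP libraries. The groups did not overlap, but the call rested on FCCP 3, without which it was lost. MRPS12, MRPS34, MRPS7, MRPS16 and MRPS33 each lost their call in 1 to 4 of the 13 fits that leave out 1 library, FCCP 3 among them in every case. MRPS15 kept its call in all 13 fits, as did the 6 large subunit genes just named.

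The 3 members called higher were MRPS31, with 24.8, 37.5 and 45.5 CPM in preconditioning+FCCP and 24.5, 24.3 and 23.0 CPM in FCCP libraries (0.59 ± 0.21, adjusted p = 0.0387), MRPS35 (0.49 ± 0.18) and MRPL15 (0.59 ± 0.21). MRPS31 lay higher in every preconditioning+FCCP library, by little in preconditioning+FCCP 1. These calls were the least stable: leaving out 1 library ended those of MRPS31 and MRPS35 in 10 of 13 fits each and that of MRPL15 in 7 of 13. The whole count was 12 lower and 0 higher without preconditioning+FCCP 2, 13 lower and 0 higher without FCCP 3, and 16 lower and 2 higher without preconditioning+FCCP 1. Of all genes 11.3%, 11.6% and 12.8% were called lower in these fits, in that order, so that calls were lost across all genes too. Within the higher-share set, with preconditioning+FCCP 3 as the single library of its group, 0 members were called and 17 had an unadjusted p under 0.05, but of all 17819 genes tested there 1 was lower and 2 higher, so that this count says nothing of the members.

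**Figure D3:**
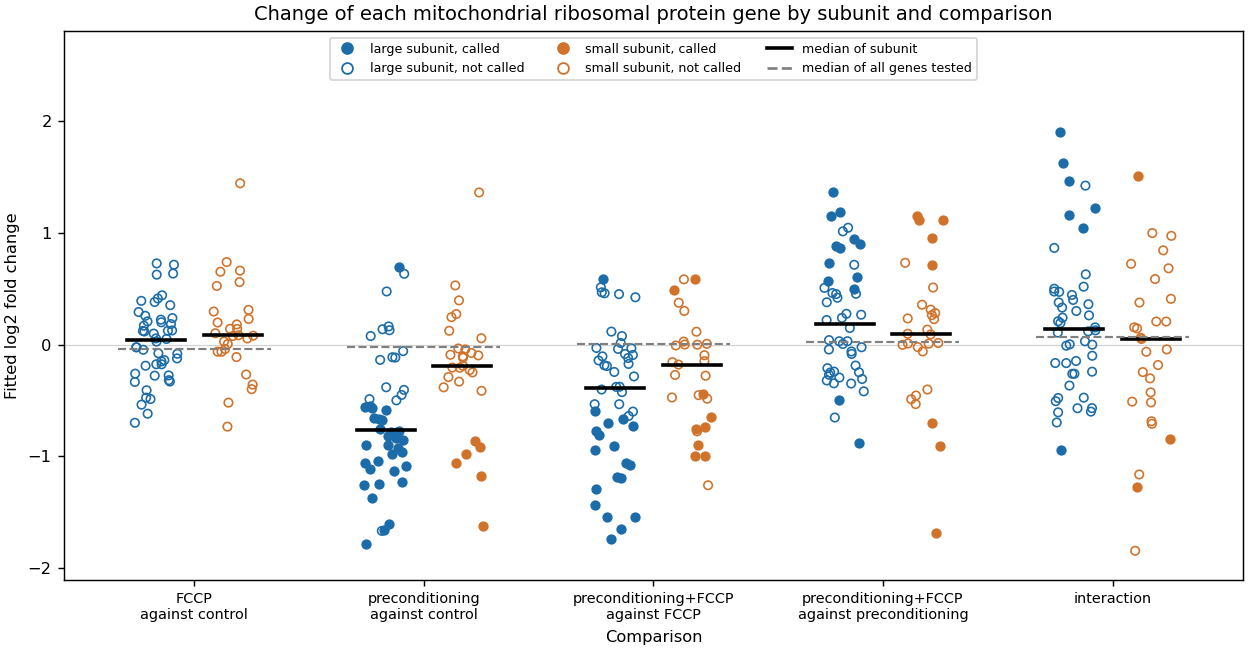
Fitted log2 fold change (vertical axis) of each tested member in the 5 comparisons, large subunit (blue) left of small subunit (orange), with called genes filled. Black bars are subunit medians and dashed lines the median of all genes tested. The subunit medians lie furthest apart in preconditioning against control, at −0.76 for the large and −0.19 for the small subunit.

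Preconditioning+FCCP against preconditioning asked what FCCP did in preconditioned cells. Here 16 members rose and 5 fell, against 20.2% of all genes higher and 19.2% lower, beside 20.8% of the members higher and 6.49% lower. The large subunit had 11 of 48 higher and 2 lower and the small subunit 5 of 29 higher and 3 lower. The medians were 0.18 and 0.10, against 0.02 over all genes. The fibroblast markers summed to 2703 to 4364 CPM in preconditioning+FCCP and 9449 to 10060.3 CPM in preconditioning libraries, and the endothelial markers to 2.59 to 4.69 CPM in preconditioning+FCCP and 20.9 to 25.8 CPM in preconditioning libraries. Neither range overlapped between the groups, while those of the smooth muscle markers (159 to 382 CPM in preconditioning+FCCP and 348 to 518 CPM in preconditioning libraries) and of the immune markers did. The part of these markers in the comparison was not tested.

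Of the large subunit, MRPL10 had 125, 127 and 154 CPM in preconditioning+FCCP libraries, against 67.5, 76.1, 75.4 and 72.2 CPM in preconditioning libraries (0.90 ± 0.16, adjusted p = 0.000672). MRPL18 had 135, 136 and 263 CPM in preconditioning+FCCP and 76.8, 74.1, 88.1 and 73.7 CPM in preconditioning libraries (1.19 ± 0.23, adjusted p = 0.00102). For both genes the groups did not overlap, and preconditioning+FCCP 3 was the highest library, for MRPL18 within the range of the control libraries. MRPL32 had 40.3, 56.1 and 104 CPM in preconditioning+FCCP and 24.6, 26.9, 27.5 and 25.2 CPM in preconditioning libraries (1.36 ± 0.27, adjusted p = 0.00109). MRPL50 (1.14 ± 0.25), MRPL55 (0.94 ± 0.18) and MRPL47 (0.88 ± 0.22) rose likewise with no overlap of the groups. MRPL22 of the exit tunnel (0.86 ± 0.23), MRPL9, MRPL21, MRPL41 and MRPL58, a peptidyl-tRNA hydrolase that frees stalled ribosomes (0.50 ± 0.17), rose as well.

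Of the small subunit, MRPS31 had 24.8, 37.5 and 45.5 CPM in preconditioning+FCCP libraries, against 15.6, 16.9, 15.9 and 16.6 CPM in preconditioning libraries (1.15 ± 0.19, adjusted p = 0.000390). All 3 preconditioning+FCCP libraries were above all 4 preconditioning libraries, as for MRPS26 (1.11 ± 0.23), MRPS35 (0.71 ± 0.16), MRPS6 (1.11 ± 0.27) and MRPS36 (0.95 ± 0.24).

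The member with the smallest adjusted p in any comparison fell. MRPS27, a pentatricopeptide repeat protein of the small subunit, had 69.0, 61.9 and 69.8 CPM in preconditioning+FCCP libraries and 129, 123, 121 and 128 CPM in preconditioning libraries, beside 77.1, 97.8 and 98.4 CPM in FCCP and 88.5, 104 and 93.6 CPM in control libraries. The preconditioning libraries were the highest and the preconditioning+FCCP libraries the lowest, both apart from all other groups, while FCCP and control libraries overlapped. The log2 fold change was −0.90 ± 0.14 (adjusted p = 0.000253) against preconditioning and −0.45 ± 0.15 (adjusted p = 0.0318) against FCCP, while preconditioning against control did not pass (0.39 ± 0.14, adjusted p = 0.0552). The other members that fell were MRPS16 (−0.70 ± 0.19), MRPL27 (−0.88 ± 0.28), MRPL28 (−0.50 ± 0.19) and MRPS28 (−1.68 ± 0.46), the last at under 2 CPM in every library.

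Of these libraries preconditioning+FCCP 3 alone belongs to the higher-share set, and it was the highest of its group in most of the genes above. Without it 8 members were higher and 9 lower. The calls of MRPL47, MRPL22, MRPL9, MRPL21, MRPL41, MRPL58, MRPS6 and MRPS36 were lost. The calls of MRPL10, MRPL18, MRPL32, MRPL50, MRPL55, MRPS31, MRPS26, MRPS35, MRPS27, MRPS16 and MRPS28 held in all 13 fits that leave out 1 library. MRPL27 lost its call in 3 and MRPL28 in 5 of the 13 fits, preconditioning+FCCP 1 and 2 among the libraries left out. Without that library 14.0% of all genes were higher and 16.1% lower. Within the lower-share set, which leaves out the same library among others, 18 members were higher and 18 lower, near the shares of all genes, 26.7% higher and 25.3% lower, so that the low share of lower members in the fit of all libraries did not hold there. In that set MRPL18 (0.79), MRPL32 (0.89), MRPS31 (0.94) and MRPS27 (−0.94) were called there.

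**Figure D4:**
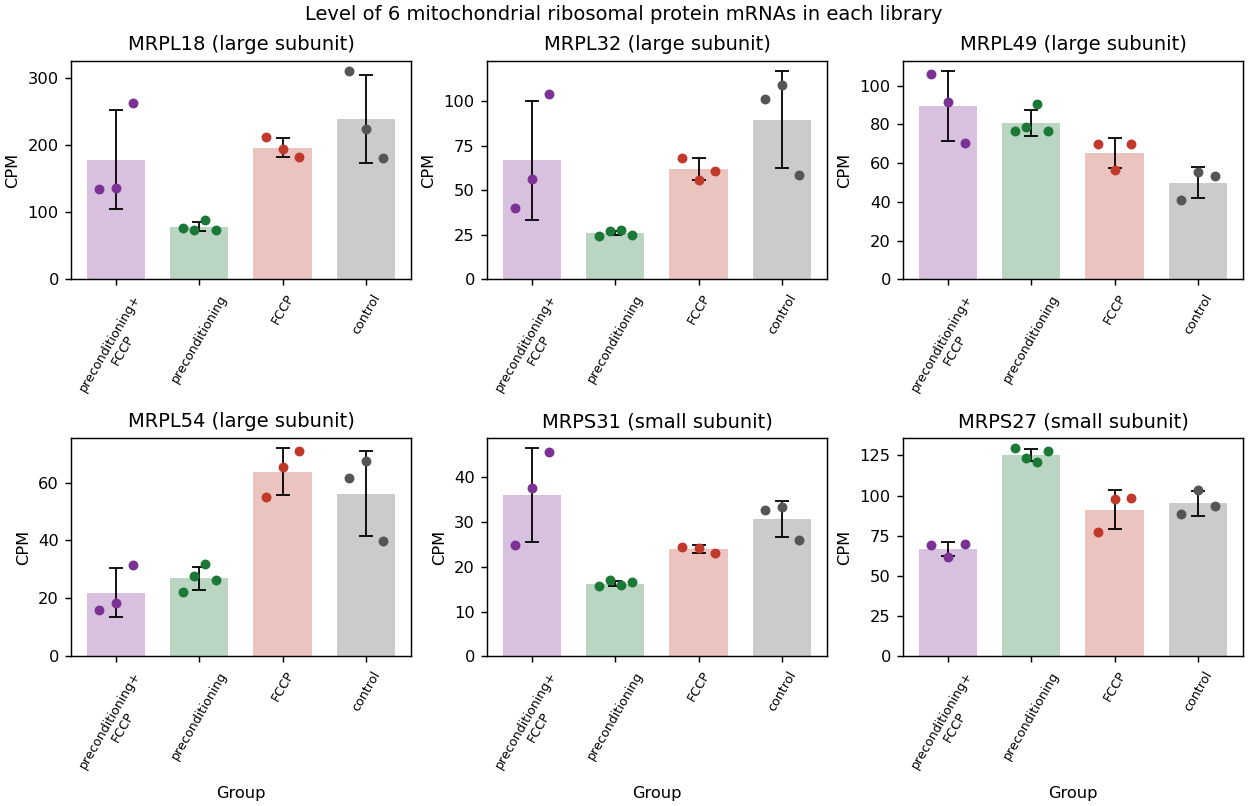
Level in CPM (vertical axes, from 0) of 6 members in each library (points), with group means (bars) and SD (whiskers), n = 3, 4, 3 and 3. MRPL18, MRPL32 and MRPS31 are lowest in preconditioning, MRPL49 is lowest in control, MRPL54 is high in FCCP and control, and MRPS27 is highest in preconditioning and lowest in preconditioning+FCCP.

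The interaction compares the FCCP effect with preconditioning and without it. Of 77 members 7 had a more positive FCCP effect in preconditioned cells and 3 a more negative one, or 9.09% and 3.90% of the members, against 9.38% and 9.6% of all genes. With library totals as the only scaling these were 9 and 1, against 10.6% and 8.09% of all genes. The difference of the FCCP effects was 1.90 ± 0.39 for MRPL32 (adjusted p = 0.00473), with 1.36 in preconditioned cells and −0.54 without preconditioning. It was 1.50 ± 0.29 for MRPS31 (adjusted p = 0.00318), with 1.15 and −0.36. MRPL50 (1.62 ± 0.37), MRPL18 (1.47 ± 0.34), MRPL47 (1.22 ± 0.33), MRPL15 (1.16 ± 0.28) and MRPL22 (1.04 ± 0.34) showed the same sign. No FCCP effect without preconditioning passed the test by itself.

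A more negative FCCP effect in preconditioned cells was found for MRPS27 (−0.84 ± 0.21, adjusted p = 0.0120), MRPS12 (−1.27 ± 0.37) and MRPL36 (−0.95 ± 0.30). MRPS12 had −0.53 in preconditioned cells, which did not pass, and 0.74 without preconditioning, which did not pass either. MRPL32, MRPL50, MRPL18, MRPL15, MRPS27 and MRPS31 held their interaction call in all 13 fits that leave out 1 library, while MRPL22 lost it in 11, MRPL36 in 9, and MRPL47 and MRPS12 in 5 each. The count was 1 lower and 5 higher without control 1 and likewise without FCCP 3, and 6 lower and 10 higher without control 3. Of all genes 7.78%, 6.61% and 12.1% were called lower and 6.52%, 5.31% and 10.9% higher in these fits, in that order.

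The contrast of the subunits can be read in each library as the mean log2 CPM of large minus that of small subunit genes. It was 0.40, 0.47 and 0.73 in preconditioning+FCCP 1, 2 and 3, 0.37 to 0.47 in preconditioning libraries, 0.74 to 0.78 in FCCP libraries, and 1.11, 0.95 and 0.57 in control 1, 2 and 3. Every library of the higher-share set lay at 0.73 or above and every library of the lower-share set at 0.57 or below. The group means were 0.53 ± 0.17 in preconditioning+FCCP, 0.44 ± 0.05 in preconditioning (n = 4), 0.76 ± 0.02 in FCCP and 0.88 ± 0.28 in control (SD, n = 3 in the others). The preconditioning libraries all lay below all control libraries, with control 3 the nearest of them.

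As a difference of the medians of fitted changes, large minus small was −0.57 in preconditioning against control, −0.21 in preconditioning+FCCP against FCCP, 0.09 in preconditioning+FCCP against preconditioning, −0.04 in FCCP against control and 0.09 in the interaction. Within the lower-share set it was −0.03 in preconditioning against control, and with the library set as a term −0.23. With length and GC content taken out it was −0.42. In levels, the large subunit stood at 5.06 ± 0.10 mean log2 CPM in preconditioning and 5.70 ± 0.16 in control libraries, and the small subunit at 4.62 ± 0.08 in preconditioning and 4.82 ± 0.14 in control libraries, where control 1 (4.67) lay within the range of the preconditioning libraries (4.54 to 4.73).

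**Figure D5:**
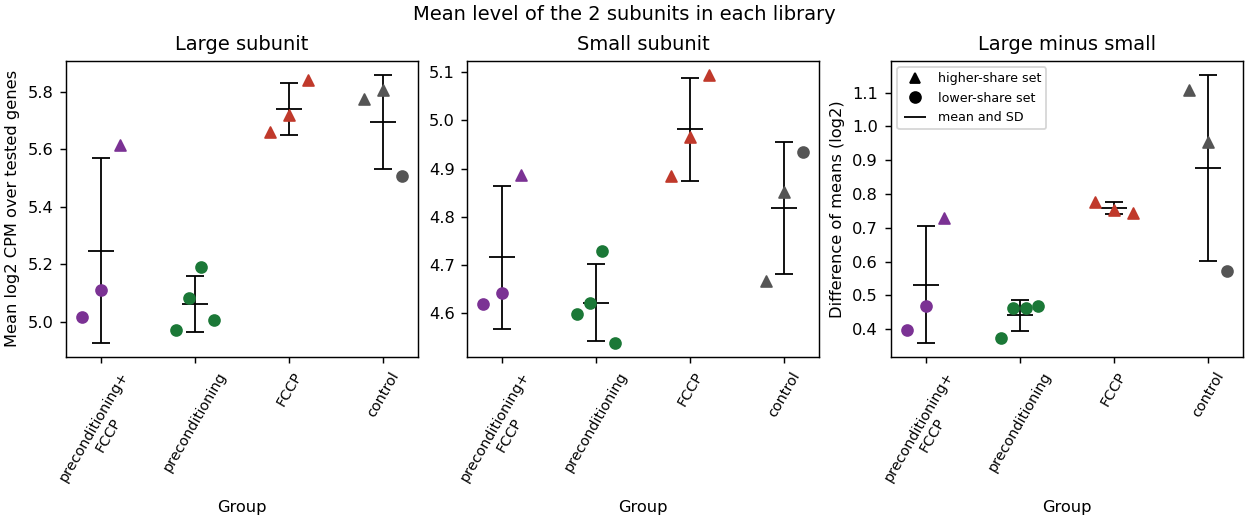
Mean log2 CPM of tested large (left) and small (middle) subunit genes and their difference (right) in each library, by group. Triangles are libraries of the higher-share set and circles those of the lower-share set, and whiskers are mean and SD. The difference is 0.73 or above in all triangles and 0.57 or below in all circles.

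Symbols do not always give the place in the ribosome: MRPS30 and MRPS18A sit in the large subunit and MRPS36 is named KGD4 in RefSeq and was set aside. With these moved, 31 of 50 large and 5 of 26 small subunit members fell in preconditioning against control, against 13% of all genes. Among members of at least 10 CPM with up to 10% of exonic bases shared with other genes, 26 of 34 large and 6 of 17 small subunit members fell. The share of all genes tested, without these limits, was the same 13%.

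Of 5 mitochondrial ribosomal proteins under other symbols, 3 fell in preconditioning against control, where 13% of all genes did: GADD45GIP1 (−1.45 ± 0.29) of the large subunit and CHCHD1 (−1.05 ± 0.29) and AURKAIP1 (−0.77 ± 0.21) of the small. CHCHD1 and AURKAIP1 fell in preconditioning+FCCP against FCCP as well, 40% of the list against 17.7% of all genes. DAP3, a GTP-binding protein of the small subunit, rose in preconditioning+FCCP against preconditioning (0.44 ± 0.17), 20% of the list against 20.2% of all genes. None of the 5 was called by edgeR in FCCP against control or in the interaction.

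The ribosomal RNAs of the organelle, MT-RNR1 of the small and MT-RNR2 of the large subunit, were not level within groups either. MT-RNR1 had 603, 1335 and 3285 CPM in preconditioning+FCCP libraries, 412, 403, 250.3 and 475 CPM in preconditioning libraries, 1745, 271 and 268 CPM in FCCP libraries and 3030.1, 3255 and 1209 CPM in control libraries. MT-RNR2 had 3034, 7411 and 21814 CPM in preconditioning+FCCP libraries, 2381, 2569, 1405 and 3599 CPM in preconditioning libraries, 20588, 2239 and 2261 CPM in FCCP libraries and 29337, 30018 and 6619 CPM in control libraries. FCCP 1 stood above FCCP 2 and 3, control 3 below control 1 and 2, and preconditioning+FCCP 3 was the highest of its group. Both fell in preconditioning against control (−2.70 ± 0.63 and −3.14 ± 0.78) and rose in preconditioning+FCCP against preconditioning (2.18 ± 0.62 and 2.11 ± 0.76). Mitochondrially encoded genes as a whole took 1.33% to 6.42% of counts in preconditioning+FCCP, 1.00% to 1.85% in preconditioning, 1.55% to 6.49% in FCCP and 3.00% to 9.58% in control libraries. The libraries were selected for poly-A RNA, and reads of these genes may also align to nuclear copies.

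Of 24 tested genes for assembly of the ribosome and modification of its RNA, 2 fell and none of the 24 rose in preconditioning against control, the RNase YBEY (−1.03 ± 0.21) and RBFA (−1.08 ± 0.34), with a median of −0.00041 for the list, and 8.33% of the list lower against 13% of all genes. In FCCP against control the helicase DDX28 fell (−1.56 ± 0.29), with 5.41, 3.36 and 7.39 CPM in FCCP and 12.3, 16.8 and 18.7 CPM in control libraries, while MPV17L2, an inner membrane protein (0.99 ± 0.22), and ERAL1, an RNA chaperone of the small subunit (0.72 ± 0.19), rose. The DDX28 groups did not overlap, and the 2 higher and 1 lower genes are 8.33% and 4.17% of the list, against 1.6% and 1.92% of all genes. In preconditioning+FCCP against FCCP 6 rose and 2 fell, with the rRNA methylase NSUN4 (1.13 ± 0.21), DDX28 (1.44 ± 0.29) and GTPBP10 (1.07 ± 0.22) foremost, or 25.0% of the list higher and 8.33% lower, against 17.9% and 17.7% of all genes. In preconditioning+FCCP against preconditioning 4 rose and 1 fell, 16.7% and 4.17% of the list, both under the 20.2% and 19.2% of all genes. Among them were MTERF3, a regulator of mitochondrial transcription (2.03 ± 0.36), which had 26.5, 44.5 and 96.5 CPM in preconditioning+FCCP and 13.9, 13.4, 14.1 and 13.1 CPM in preconditioning libraries, MPV17L2 (1.24 ± 0.20) and the rRNA methylase TFB1M (−0.98 ± 0.24), which fell. The interaction called 4 higher and 1 lower, 16.7% and 4.17% of the list against 9.38% and 9.6% of all genes, DDX28 (1.52 ± 0.39), MTERF3 (2.04 ± 0.53) and GTPBP10 (1.09 ± 0.30) among the higher.

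Of 15 tested translation factors and partners of mitochondrial messenger RNA, 4 fell and 1 rose in preconditioning against control, or 26.7% and 6.67% of the list, against 13% and 10.5% of all genes. SLIRP, which holds these messengers together with LRPPRC, had 28.1, 31.8, 39.9 and 24.9 CPM in preconditioning and 98.6, 78.4 and 64.1 CPM in control libraries (−1.37 ± 0.24, adjusted p = 0.00264). All preconditioning libraries were below all control libraries. The release factor MTRF1 fell (−0.70 ± 0.19) and GFM2, which takes part in recycling of the ribosome, rose (0.80 ± 0.20). In preconditioning+FCCP against FCCP 5 rose and 1 fell, the initiation factor MTIF2 (0.62 ± 0.18) and GFM2 (0.69 ± 0.21) among the higher, and the membrane insertase OXA1L was the lower one (−0.64 ± 0.16). These are 33.3% of the list higher and 6.67% lower, against 17.9% and 17.7% of all genes. In preconditioning+FCCP against preconditioning 4 rose, MTIF2 (0.77 ± 0.16), MTRFR (0.98 ± 0.24) and MTIF3 (0.76 ± 0.25) among them, and none of the 15 was called lower, with 5 of the 15 below 0. The higher genes are 26.7% of the list, against 20.2% of all genes. None was called by edgeR in FCCP against control, and MTIF2 (0.89 ± 0.24) and MTRFR (1.27 ± 0.35) were the interaction's 2 higher calls, 13.3% of the list against 9.38% of all genes.

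Cytosolic ribosomal proteins, whose mRNAs are also short, fell in 57 of 85 tested cases in preconditioning against control, against 13% of all genes, with a median log2 fold change of −0.78. By subunit, 36 of 52 large and 21 of 33 small subunit members fell, with medians of −0.80 and −0.67, and the large minus small mean log2 CPM was 0.11 ± 0.03 in preconditioning (n = 4) and 0.12 ± 0.09 in control libraries (SD, n = 3). Whether the subunits of the 2 kinds of ribosome differ in this contrast was not tested.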

How the data were processed

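The authors deposited one table of counts per library: whole-number reads per Ensembl gene, without normalization. The submitters' processing notes name HISAT2, HTSeq and hg19, with versions and strand setting not given in the sources used here. Without the strand setting, reads of overlapping and antisense genes cannot be told apart. The counter's summary rows did not enter library sizes. Symbols came from a separate list of gene names matched by Ensembl ID. Gene types, median transcript lengths, GC content and exon overlap came from GENCODE 29, which lacks 5013 of the 63241 IDs.

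One edgeR 4.0.16 quasi-likelihood fit (R 4.3.3, TMM scaling, filterByExpr) held all 13 libraries and gave 5 contrasts over 16756 genes with Benjamini-Hochberg adjustment; calls are at an adjusted p under 0.05, and the SE is the absolute log2 fold change over the square root of F. The procedure was tested on simulated data. DESeq2 1.42.0 and limma 3.58.1 (voom) were alternatives. No library pair agreed within sampling noise (lowest chi-square per degree of freedom 3.32).

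The members and lists were chosen with earlier results of these data known. Named members are, per comparison and subunit, up to 6 called members with the smallest adjusted p in each direction, or the 2 with the smallest p where fewer than 2 were called, and up to 3 called genes per list. MRPS18A, MRPS18B, MRPS18C, MRPS36, MRPL12, MRPL18, MRPL22, MRPL44, MRPS12, MT-RNR1 and MT-RNR2 are always named; a few further called members are named for their place in the ribosome.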

Additional observations from a re-analysis of the deposited data

Results flagged for a closer look

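The FCCP effect differed with and without preconditioning, by the interaction term of the edgeR fit, for 10 members and both ribosomal RNA genes. These are 7 members higher and 3 lower of 77, or 9.09% and 3.90%, against 9.38% and 9.6% of all genes, so that members were not called more often than genes in general. The difference on the log2 scale, with minus without preconditioning, was 1.90 for MRPL32, 1.62 for MRPL50, 1.50 for MRPS31, 1.47 for MRPL18, 1.22 for MRPL47, 1.16 for MRPL15 and 1.04 for MRPL22. It was −0.84 for MRPS27, −0.95 for MRPL36 and −1.27 for MRPS12. It was 3.89 for MT-RNR1 and 3.51 for MT-RNR2.

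Of 40 groups of 4 preconditioning libraries examined, 4 held a library far from the other 3, where chance flags about 1 in 20 groups. The gap to the nearest library, as a share of the group's range, was 0.842 for MRPL49, 0.831 for MRPS12 and 0.859 for MRPS34, with preconditioning 3 the highest in each. It was 0.943 for the large minus small subunit mean, with preconditioning 1 the lowest.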

How the results depend on the processing

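No called direction reversed in the alternatives run, and of 2386 values of named members under 27 of them 2180 kept their call or lack of one. Calls across all genes changed with these settings too. In FCCP against control (0 called members) the count was 2 with a mean of at least 1 CPM, 3 by DESeq2, 5 with the library set as a term and 18 without control 3, FCCP 1 and preconditioning+FCCP 3. Genes in general also gained calls, with 2.34% lower and 2.19% higher at that mean and 4.2% and 3.74% by DESeq2. These shares were 2.9% and 2.7% with the set term, and 10.8% and 7.29% without the 3 libraries. In the main fit they were 1.92% and 1.6%. In preconditioning against control (38) the count was 24 with the replicate block, 3 with the set term and 19 at an adjusted p under 0.01. Of all genes 5.74% were lower and 5.25% higher with the block, and 1.41% and 1.32% with the set term, against 13.0% and 10.5% in the main fit. The subunit difference (−0.57) was −0.23 with the set term, −0.74 without the 3 libraries and −0.031 within the lower-share set. Without the 3 libraries, all remaining control and FCCP libraries are in the higher-share set. All remaining preconditioning and preconditioning+FCCP libraries are then in the lower-share set, so that set and preconditioning cannot be told apart in that fit. In preconditioning+FCCP against FCCP (28) the count was 14 with the set term, 47 without the 3 libraries and 13 at 0.01. Of all genes 10.4% were lower and 11.3% higher with the set term, and 27.5% and 26.4% without the 3 libraries, against 17.7% and 17.9% in the main fit. In preconditioning+FCCP against preconditioning (21) it was 32 with the compared groups alone, 34 without the 3 libraries and 36 within the lower-share set. Of all genes 24.9%, 24.9% and 25.3% were lower in these fits, against 19.2% in the main fit. The higher shares were 27.1%, 23.3% and 26.7%, against 20.2%. In the interaction (10) it was 16 with the set term, 27 without the 3 libraries and 4 at 0.01. Of all genes 14.1% were lower and 12.8% higher with the set term, and 18.9% and 18.4% without the 3 libraries, against 9.6% and 9.38% in the main fit. The within-set fits were chosen after seeing the data, and the 3 libraries left out sit apart from their groups in these data. For the counts at 0.01 the shares of all genes are not given here. The causes were not tested.

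Leaving out 1 library gave 0 to 4, 18 to 42, 12 to 34, 16 to 25 and 6 to 16 calls in the same order, and subunit differences of −0.15 to 0.12, −0.74 to −0.45, −0.33 to −0.041, −0.06 to 0.14 and 0.02 to 0.23. Each highest count came without control 3. There 2.44%, 17.9%, 20.7%, 22.3% and 12.1% of all genes were lower and 2.36%, 16.8%, 20.1%, 21.8% and 10.9% higher. The 18 calls came without control 1, with 4.88% of all genes lower and 3.80% higher. The 12 calls came without preconditioning+FCCP 2, with 11.3% lower and 11.3% higher. No pairing by replicate number was seen: same-number correlations ran from −0.20 to 0.16 over 18 pairs, and 2 libraries correlated best with their own number. With so few libraries per group this cannot exclude that same-numbered libraries were handled together. The replicate block gave 0, 24, 21, 16 and 8 calls. With the block 0.179%, 5.74%, 14.5%, 15.02% and 6.3% of all genes were lower, in the same order. The higher shares were 0.137%, 5.25%, 14.8%, 14.8% and 5.02%. Each of these shares was smaller than in the main fit.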
